A study of Mus musculus with 28 samples.

Results

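H3K27me3, the trimethyl mark that Polycomb repressive complex 2 places on lysine 27 of histone H3, was compared between old and young mouse hair follicle stem cells by ChIP-seq. Every peak of the deposited H3K27me3 table was taken, 67985 of the 104013 regions in the 4 peak tables of the series, and 6 of its 28 libraries. The groups were 3 libraries from mice aged 6 months and 3 from mice aged 24 months, all of strain 132-C67BL/6J as the labels spell it, with no allele or agent named for either age. Skin was digested with trypsin and the epidermal fraction was sorted by flow cytometry for cells positive for both CD34 and α6-integrin, the surface pair that marks stem cells of the hair follicle bulge. Chromatin was then pulled down with an antibody to H3K27me3 in a ChIPmentation protocol, in which tagmentation builds the library on the beads. The series asks whether chromatin at bivalent promoters becomes less accessible with age.

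Polycomb silencing works in 2 layers: complex 2, with the enzyme Ezh2, writes H3K27me3, and complex 1 reads it and compacts the chromatin. In adult stem cells the mark lies in broad domains over the genes of development that the tissue does not use, such as the Hox clusters and the regulators of neurons and muscle, and these domains form mainly over CpG-rich promoters that DNA methylation leaves free. A promoter that carries H3K4me3, the mark of start sites, together with H3K27me3 is called bivalent, and many promoters of developmental regulators are of that kind.

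The table holds group values and none per library. For each peak it gives the authors' mean level at each age, the log2 of their ratio, and how likely such a difference is by chance as a p-value and, corrected for the number of peaks, as a false discovery rate (FDR). A level is the log2 of normalized reads over the whole peak, so that it grows with the width of the peak. All levels, log2 differences and FDRs below are those of the authors' deposited table, with differences turned to 24 minus 6 months. A peak with a deposited FDR under 0.05 is said to be called, and only called peaks are said to have risen or fallen. No spread between libraries can be given, the depth of the libraries is unknown, and in sorted bulk cells a mark lost from some cells and a mark thinned in all cells cannot be told apart. The sort label was set beside H3K4me3, from other libraries of the series. All 35 of 35 genes of a hair follicle stem cell list, Cd34, Itga6, Sox9 and Lhx2 among them, had an H3K4me3 promoter peak. So did 3 of 27 immune cell markers, 8 of 17 fibroblast markers, 7 of 22 markers of endothelium, muscle and glia, and 2 of 10 melanocyte markers. Among sebaceous gland genes 9 of 17 had one, among epidermal differentiation genes 21 of 79, and 12158 genes in all. Bivalent promoters carry H3K4me3 too, so that these counts do not tell bulge stem cells from other keratinocytes.

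H3K27me3 was lost and gained at similar numbers of peaks at the FDR used, and shares of losses and gains differed between kinds of places. Of the 67985 peaks in the authors' deposited table, 1767 fell with age (2.60%) and 1811 rose (2.66%). The balance turns with the threshold: at an FDR of 0.01 there were 931 losses and 661 gains, and at an unadjusted p under 0.05 there were 4848 losses and 6845 gains. Losses were more frequent at promoters, broad domains, CpG-rich start sites and genes of developmental regulators, of which the homeobox, forkhead, Sox and Pax families gave up mark and had no promoter peak that gained it. Gains took 2.60% of peaks outside promoters and 3.14% at them, and promoters that gained mark held few CpG pairs. The promoters that gained mark included Wap, a milk protein, Zap70, the kinase of the T-cell receptor, and Fcrl1, a B-cell surface receptor.

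Promoter sequences of 7 of these genes are shown because they carry the contrast between the 2 kinds of place. Each is the stretch of 250 bases just upstream of a RefSeq start site that lies in a called peak, in GRCm38.p6, written 5′ to 3′ on the strand of the gene with each CG in capitals. They were chosen after their values were seen: the lowest-FDR promoter with a sequence from the homeobox, Sox and forkhead lists and from all losses, then the first pair of gains, then the first gain among immune markers.
Dlx1 (+ strand, chr2:71529195-71529444): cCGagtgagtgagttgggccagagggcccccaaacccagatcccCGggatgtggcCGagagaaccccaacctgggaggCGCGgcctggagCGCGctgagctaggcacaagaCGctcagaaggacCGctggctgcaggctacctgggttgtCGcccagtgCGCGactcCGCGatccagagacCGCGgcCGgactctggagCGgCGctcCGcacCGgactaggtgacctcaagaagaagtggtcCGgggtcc
Sox2 (+ strand, chr3:34649745-34649994): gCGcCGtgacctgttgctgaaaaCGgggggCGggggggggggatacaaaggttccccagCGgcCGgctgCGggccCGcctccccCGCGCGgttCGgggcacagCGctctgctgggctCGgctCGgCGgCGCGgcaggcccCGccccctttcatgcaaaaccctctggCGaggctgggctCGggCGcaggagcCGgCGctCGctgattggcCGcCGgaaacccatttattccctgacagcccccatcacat
Foxa1 (- strand, chr12:57546112-57546361): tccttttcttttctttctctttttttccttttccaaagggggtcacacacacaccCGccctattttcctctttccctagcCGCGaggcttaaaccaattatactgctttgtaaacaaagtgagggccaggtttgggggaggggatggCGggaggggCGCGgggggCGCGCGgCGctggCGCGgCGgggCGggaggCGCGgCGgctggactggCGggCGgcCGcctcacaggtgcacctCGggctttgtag
Stra6 (+ strand, chr9:58128838-58129087): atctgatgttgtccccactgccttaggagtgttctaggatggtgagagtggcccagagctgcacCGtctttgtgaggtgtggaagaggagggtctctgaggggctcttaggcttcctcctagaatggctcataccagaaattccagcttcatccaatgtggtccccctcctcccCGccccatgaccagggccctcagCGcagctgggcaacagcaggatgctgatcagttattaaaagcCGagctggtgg
Zap70 (+ strand, chr1:36778734-36778983): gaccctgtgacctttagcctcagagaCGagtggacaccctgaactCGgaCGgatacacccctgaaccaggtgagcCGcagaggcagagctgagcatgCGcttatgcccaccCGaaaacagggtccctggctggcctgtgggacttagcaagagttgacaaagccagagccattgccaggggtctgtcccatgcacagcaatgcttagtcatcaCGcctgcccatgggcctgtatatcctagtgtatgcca
Fcrl1 (+ strand, chr3:87376137-87376386): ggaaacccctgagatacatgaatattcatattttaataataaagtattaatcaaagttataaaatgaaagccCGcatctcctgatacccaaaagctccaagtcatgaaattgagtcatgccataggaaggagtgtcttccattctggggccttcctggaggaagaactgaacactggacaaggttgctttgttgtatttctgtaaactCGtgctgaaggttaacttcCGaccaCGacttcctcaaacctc
Laptm5 (+ strand, chr4:130913066-130913315): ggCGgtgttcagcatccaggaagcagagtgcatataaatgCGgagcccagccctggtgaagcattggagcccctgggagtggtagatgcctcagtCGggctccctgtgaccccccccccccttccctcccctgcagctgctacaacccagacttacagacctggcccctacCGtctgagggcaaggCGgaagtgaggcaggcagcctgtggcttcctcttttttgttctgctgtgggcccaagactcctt
The first 3 belong to transcription factors of development and held 22, 27 and 21 CG pairs. Stra6, which encodes the cell surface receptor for retinol uptake, had the strongest loss of the 7 with only 4. The promoters of Zap70, Fcrl1 and Laptm5, genes of lymphocytes and other blood cells that gained mark, held 7, 4 and 5.

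Counted over RefSeq promoter windows of 300 bases (250 before and 50 after the start), the same order held for all windows whose start site lay in a peak. The 828 windows in peaks that fell had a median of 13 CG pairs (quartiles 6 and 23), the 104 in peaks that rose had 4 (2 and 7), and the 3815 in peaks not called had 6 (3 and 14). A peak with several start sites counts once for each, so that windows are not independent. The motif searched was CG, which reads the same on both strands and was present in 94.6% of all 32851 windows, whose median was 7. Among windows whose start site lay in a peak, 899 had 20 or more CG pairs, and of these 29.8% lay in a peak that fell and 0.222% in a peak that rose. Of the 1673 such windows with 0 to 4 pairs the shares were 8.43% and 3.29%. The order was the same within classes of width. Among peaks of 2 to 10 kb the median was 14 CG pairs for losses, 5 for gains and 6 for peaks not called, and among peaks wider than 10 kb it was 12, 5 and 8.

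**Figure D1:**
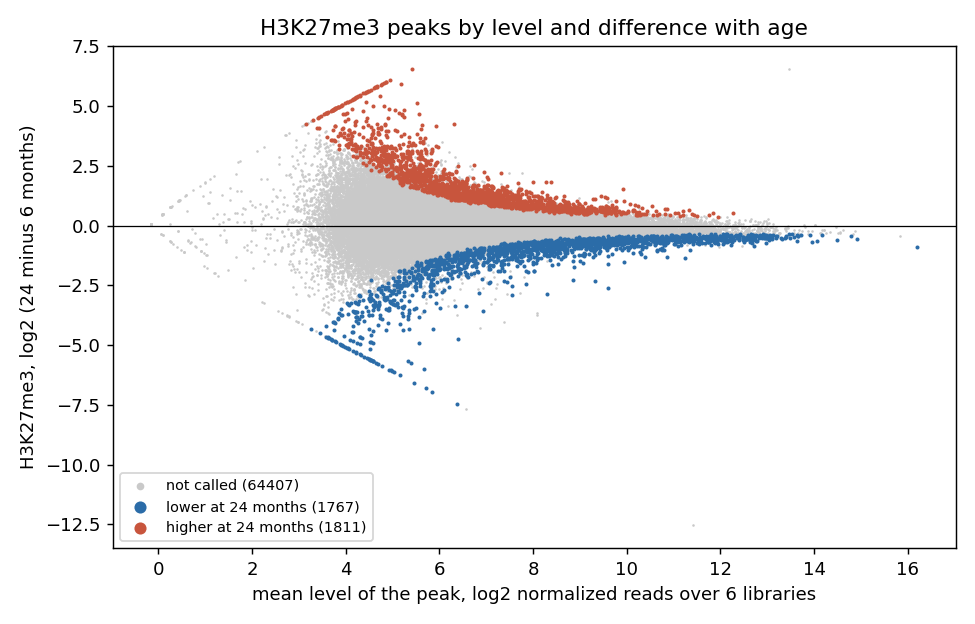
Each point is 1 of 67985 H3K27me3 peaks, by its mean level (log2 normalized reads over all 6 libraries) and its log2 difference between 24 and 6 months, with called losses in blue and called gains in red. Among the 6795 peaks with the highest levels 796 fell and 244 rose, among the 6749 just below them 322 and 332, and points on the slanted edges are peaks with 1 age at the lowest level of the table.

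Promoter peaks, those annotated within 1 kb of a transcription start, fell 773 times among 8408 (9.19%) and rose 264 times (3.14%). Outside promoters the balance was the other way, with 994 losses (1.67%) and 1547 gains (2.60%) among 59577 peaks. The median log2 difference was -0.05 over promoter peaks and 0.14 over the others, against 0.12 over all peaks. By gene, 731 of the 6209 genes with a promoter peak had one that fell (11.8%) and 250 had one that rose (4.03%). Over peaks at any distance, 10.2% of the 13064 genes with a peak annotated to them had one that fell and 10.1% one that rose.

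Among the other annotation classes, gains outnumbered losses in distal intergenic peaks (757 against 493 of 33204), introns (419 against 259 of 15618), exons (141 against 68 of 3186) and 3′ UTRs (59 against 26 of 1100). The 5′ UTRs, next to the start, had 13 losses and 7 gains among 218 peaks. In peaks 1 to 2 kb from a start the counts were nearly even, at 72 losses and 75 gains of 2820, so that the excess of losses was limited to the first kilobase and the 5′ UTR among these classes.

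Losses grew more frequent with the width of the peak. Among the 8730 peaks up to 0.5 kb wide 0.687% fell and 1.07% rose, and among the 12752 peaks of 2 to 5 kb the shares were 3.61% and 4.70%. At 20 to 50 kb, the size of a Polycomb domain over a developmental gene, 23.1% of 880 peaks fell and 1.82% rose. Of the 161 peaks wider than 50 kb, 28.0% fell, 0.621% rose and 82.0% had a negative difference, with a median of -0.23 and quartiles of -0.41 and -0.07. Width and promoter position each went with losses: among peaks of 5 to 10 kb 13.8% of promoter peaks fell against 4.66% of the others, and among peaks outside promoters the share that fell rose from 0.602% up to 0.5 kb to 27.8% above 50 kb. Reads per peak grow with width, and smaller differences pass the FDR where reads are many: in the tenth of peaks with the highest mean level 796 fell and 244 rose. The part of read number in the trend with width was not tested.

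Summed over peaks, normalized reads at 24 months were 0.952 of those at 6 months without the mitochondrial peak. The 3162 peaks wider than 10 kb covered 66.8 Mb and held 52.9% of the young and 49.2% of the old reads, with an old to young ratio of 0.886. The 47386 peaks up to 2 kb covered 44.5 Mb and had a ratio of 1.09. By reads per kb, the share that fell was 2.17%, 1.49%, 1.46%, 1.94% and 5.94% from the sparsest to the densest of 5 groups of near equal size, so that only the densest group stood higher than the rest. The share that rose was 3.71%, 2.72%, 2.39%, 2.45% and 2.05% in the same order.

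**Figure D2:**
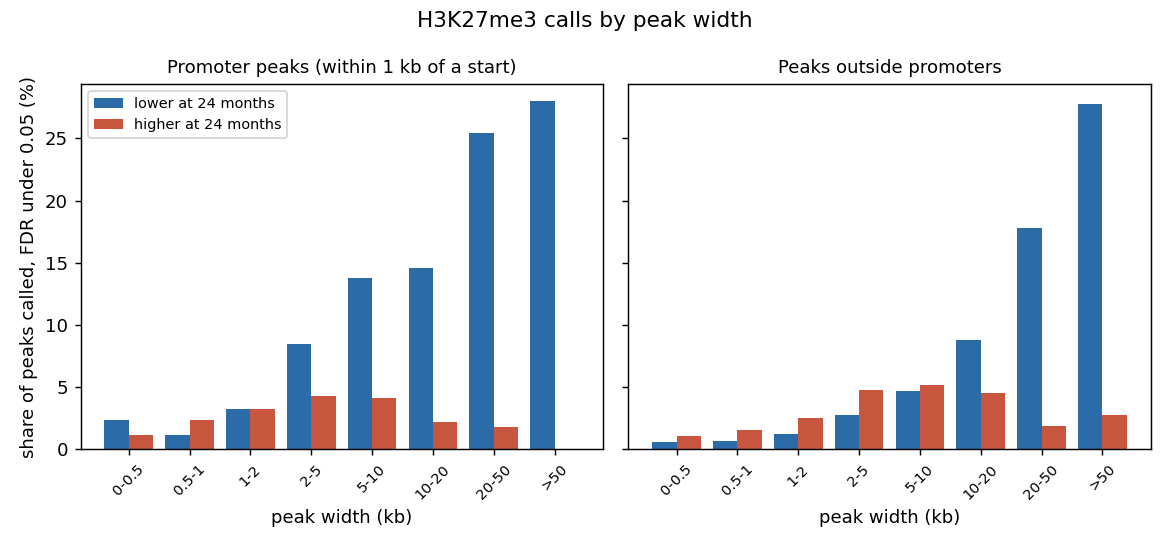
Bars give the share of peaks called lower (blue) or higher (red) at 24 months in each class of peak width in kb, for promoter peaks on the left and all other peaks on the right. The share that fell reaches 28.0% of promoter peaks and 27.8% of other peaks wider than 50 kb, while no class has more than 5.15% that rose.

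The promoter losses with the lowest FDRs belonged to genes of several kinds. The peak with the lowest FDR covered Tcf24, a basic helix-loop-helix factor, at chr1:9964012-9971164. Its authors' mean level was 9.57 at 6 months and 7.31 at 24 months, a difference of -2.26 or 4.79-fold less (deposited FDR 6.71e-29). Nr4a2, an orphan nuclear receptor induced by many stimuli, went from 11.36 to 10.04 over 17998 bases (-1.32, deposited FDR 2.2e-20). Stra6 went from 10.06 to 7.75 over 11.9 kb (-2.31, deposited FDR 5.3e-20).

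By fold these were 2.5 at Nr4a2 and 4.96 at Stra6. The next promoter losses by FDR were at Ankrd34a (-1.63), Sox17, an endoderm and endothelial factor (-1.03), Espn, the actin-bundling protein of hair cell stereocilia (-1.61), Phf21b (-1.72), Vstm4 (-2.34), Sp8, a zinc finger factor of limb outgrowth (-0.76), the thymic protease gene Prss16 (-1.02), the transporter gene Slc16a9 (-2.31) and the long noncoding RNA gene 1010001N08Rik (-1.36). Their deposited FDRs lay between 8.68e-24 and 2.76e-09. Outside promoters the strongest losses lay in Syn3 (-1.54 over 13.3 kb, deposited FDR 1.93e-15) and near Gm26635 (-2.15), Sorcs2 (-2.80), Iqck (-2.42), Zfp521 (-1.32) and Mdga1 (-1.28).

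The widest domains that fell showed small differences over long stretches. The domain over Ambp spanned 171.8 kb and went from 14.76 to 14.16 (-0.60, deposited FDR 0.00205). The one that covers Hoxa9 to Hoxa13, 120.1 kb at chr6:52222174-52342320, went from 15.18 to 14.60 (-0.58, deposited FDR 0.000133). Domains near Gm9869 (154.6 kb, -0.44) and at LOC115487063 (99.1 kb, -0.47) fell as well. Each of these 4 differences was smaller than that at Tcf24.

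Families of developmental regulators had many promoters that fell. Of 96 homeobox genes outside the Hox clusters with a promoter peak, 64 had one that fell and 0 had one that rose, against 11.8% and 4.03% of all genes with a promoter peak. The median over their promoter peaks was -0.48, the median width 27456 bases, and 90 of the 96 genes had a negative mean difference. Counted by peak, 25.4% of all promoter peaks of 20 to 50 kb fell and 1.80% rose. Homeobox factors set the identity of neurons, limbs and organs in the embryo. In the authors' deposited table Dlx1 went from 11.78 to 10.77 (-1.01, FDR 2.03e-08) and Dlx6 from 13.29 to 12.57 (-0.72).

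The forkhead genes had 16 of 22 that fell and 0 that rose (median -0.47), with Foxq1 from 10.32 to 9.30 (-1.02), Foxa1, a pioneer factor of endoderm, from 12.38 to 11.69 (-0.69), Foxd3 at -0.55 and Foxb2 at -0.65. Of 10 Sox genes 5 fell and 0 rose (median -0.43): Sox17, then Sox2, a pluripotency and neural factor, from 12.81 to 12.12 (-0.69), Sox11 (-1.02) and Sox3 (-0.81) had the lowest deposited FDRs. Among 29 Pax, T-box, Gata and Zic genes 17 fell and 0 rose (median -0.39), led by Tbr1 (-0.73), Zic5 (-0.64), Gata3 (-0.67) and Tbx15 (-0.63). The basic helix-loop-helix factors of nerve and muscle had 18 of 34 that fell and 0 that rose (median -0.45), with Sim1 (-0.70), Atoh1, the factor of hair cells and Merkel cells (-0.81), and Hand2, a heart and limb factor (-0.61), after Tcf24. Shares over all genes with a promoter peak were 11.8% that fell and 4.03% that rose. Promoter peaks of these 4 lists were wide, with medians of 19414, 11632, 23681 and 16786 bases in the order given, against 2986 over all promoter peaks. Counted by peak, 14.6% of all promoter peaks of 10 to 20 kb fell, and 25.4% of those of 20 to 50 kb.

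The Hox clusters, the body axis genes that Polycomb is best known for, were covered by 6 broad peaks that overlapped 20 of 39 Hox genes in RefSeq spans. Of these peaks 4 fell and 0 rose, and the 4 overlapped 17 Hox genes. All 6 were wider than 50 kb, a class in which 28.0% of 161 peaks fell and 0.621% rose. The domain over Hoxc9 to Hoxc12 (55.5 kb, chr15:102932150-102987624) went from 14.25 to 13.58 (-0.67, deposited FDR 2.14e-05). The domain over Hoxd3 to Hoxd13 (74.4 kb, chr2:74641803-74716228) went from 14.35 to 13.71 (-0.64, deposited FDR 5.47e-06), and its neighbour over Hoxd1 to Hoxd4 (66.6 kb) fell by 0.58 on the log2 scale. The Hoxb peaks were not called: the 90.5 kb peak over Hoxb13 went from 14.41 to 14.09 (-0.32, deposited FDR 0.117) and the 57.3 kb peak over Hoxb8 and Hoxb9 from 13.16 to 12.71 (-0.46, deposited FDR 0.0955). No peak lay within 1 kb of Hoxc13, a factor of hair shaft differentiation, and of the 7 peaks annotated to it from farther away 1 fell, over 19.4 kb (-0.62, deposited FDR 0.00126).

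Signalling genes fell in smaller shares than the regulators above. Over all genes with a promoter peak 11.8% fell and 4.03% rose. Of 27 Wnt ligands, receptors and secreted modulators 13 fell and 0 rose (median -0.47). Wnt7b went from 8.60 to 6.98 (-1.62, deposited FDR 1.18e-06) and Wnt10b, a hair follicle Wnt ligand, from 8.45 to 7.27 (-1.18). The Wnt modulator gene Sfrp2 fell by 0.68 on the log2 scale and Sfrp4 by 2.43. Hedgehog, Notch and FGF genes had 7 of 24 that fell and 0 that rose (median -0.24), among them Fgf9 (-1.40), the Notch ligand gene Dll4 (-0.58), Fgf5, a hair growth regulator (-0.72), and Fgf8 (-0.47). BMP and TGF-beta genes had 6 of 24 that fell and 0 that rose (median -0.43), with Gdf7 (-0.71), Bmp3 (-1.13), Gdf6 (-0.54) and Bmp4 (-0.81). Axon guidance genes had 9 of 33 that fell and 1 that rose: Nrp2, a semaphorin receptor (-1.27), Sema6d (-1.51), Epha2 (-0.86) and Unc5d (-0.80) fell, and Ephb2 rose (0.87, deposited FDR 1.13e-05).

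Neural genes that are not regulators had shares of called promoters close to those of all genes (11.8% and 4.03%), with medians below the -0.05 of all promoter peaks. Potassium channels had 6 of 48 that fell (12.5%) and 2 that rose (4.17%), a median of -0.23 and 38 genes with a negative mean, with Kcnf1 (-0.76) and Kcnt1 (3.47, from 2.85 to 6.32) as examples. Neurotransmitter receptors had 8 of 57 that fell (14.0%) and 1 that rose, a median of -0.25 and 44 genes with a negative mean, with Adra1a at -0.88 and Grin1 at 0.89. Outside promoters the same lists had more gains: 20 against 1 of 399 peaks for the receptors and 13 against 2 of 384 for the channels, while all peaks outside promoters had 2.60% gains and 1.67% losses. Olfactory, vomeronasal and taste receptors, large families used by sensory cells, had 1 of 70 genes that fell and 2 that rose, with a median of 0.27.

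**Figure D3:**
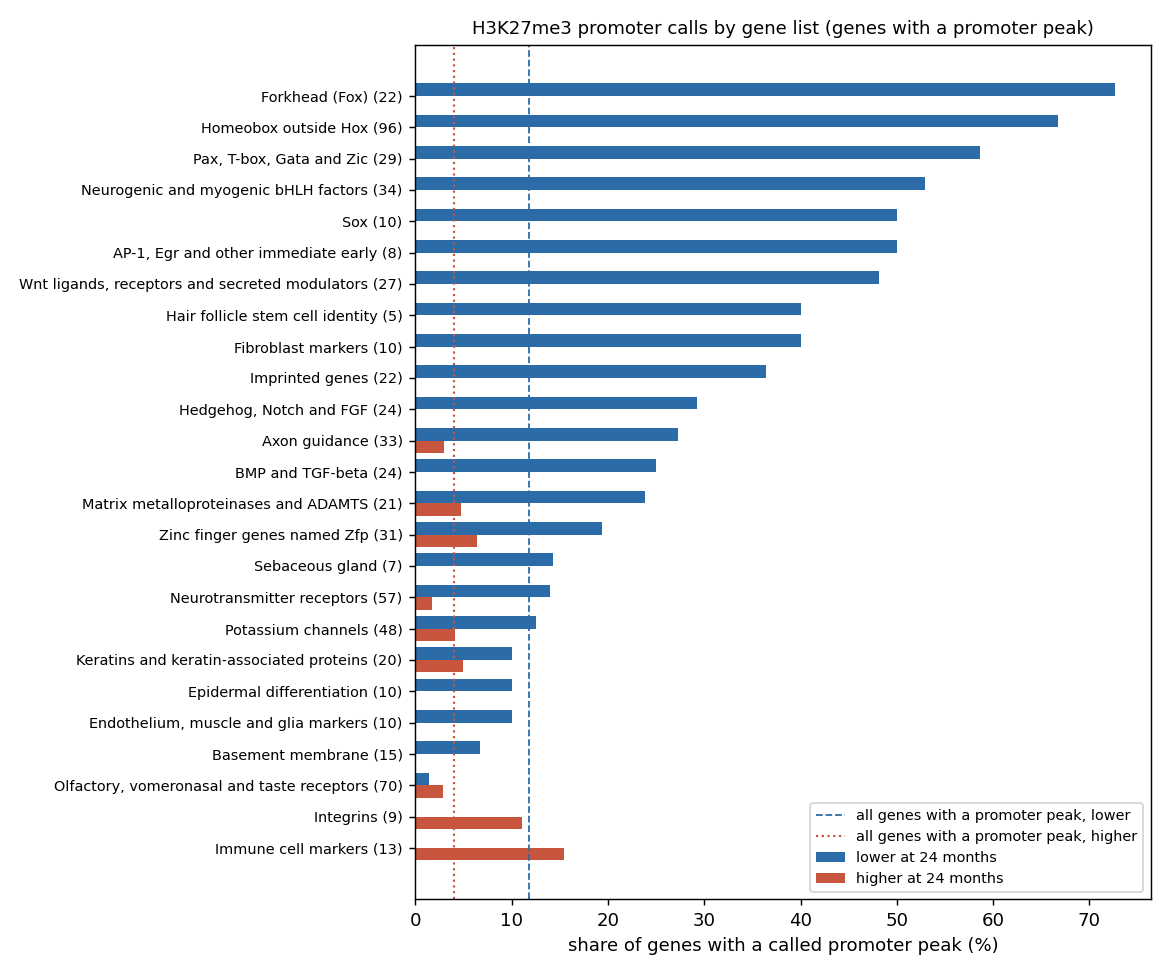
Bars give, for each gene list with at least 5 genes that have an H3K27me3 promoter peak (number in parentheses), the share of those genes with a promoter peak called lower (blue) or higher (red) at 24 months. Dashed and dotted lines mark the shares over all 6209 such genes, 11.8% lower and 4.03% higher. Forkhead and homeobox genes reach 72.7% and 66.7%, while immune cell markers and integrins have no bar for losses.

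Among lists of skin genes, calls were few, and are to be read against 11.8% of all genes with a promoter peak that fell and 4.03% that rose. Of 35 genes of hair follicle stem cell identity 5 had an H3K27me3 promoter peak, of which 2 fell: Gata3, a factor of hair follicle lineages, from 12.04 to 11.37 (-0.67) and Runx1, a regulator of stem cell activation, from 9.16 to 8.51 (-0.66, deposited FDR 0.00807). No peak lay over Cd34, Itga6, Sox9, Lhx2, Ezh2 or the imprinted gene Peg3, nor within 1 kb of them. The peak at Sox21 was 32.1 kb wide and not called, at 11.65 and 11.46 (-0.20, deposited FDR 0.456), and the 5 narrow peaks at Mef2c were not called. Of 20 keratin and keratin-associated genes 2 fell, Krt81 (-0.97) and Krt18, a keratin of simple epithelia (-0.49), and Krt12, the cornea keratin, rose (0.80, from 9.79 to 10.59). Of 10 epidermal differentiation genes 1 fell, Lor, the cornified envelope protein loricrin (-1.12), and of 7 sebaceous genes 1 fell, Pparg, the lipid cell regulator (-0.79). Of 15 basement membrane genes 1 fell, Nid2 (-0.69). Of 3 YAP and mechanosensing genes with a promoter peak 1 fell, the stretch channel gene Piezo2 (-0.77).

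Smaller lists are to be read against the 11.8% of all genes with a promoter peak that fell and 4.03% that rose. Shares that fell ran from 50.0% of immediate early, 40.0% of fibroblast and 36.4% of imprinted genes to 10.0% of endothelium, muscle and glia markers. The lists with 3 genes or fewer had none. The imprinted genes had 8 of 22 that fell and 0 that rose (median -0.49), with Zdbf2 (-0.59), Grb10 (-0.96), Rasgrf1 (-0.63) and Kcnk9 (-0.71). Immediate early genes respond within minutes to a stimulus, and of 8 genes in a list of these and related genes 4 fell. Besides Nr4a2 they were Nr4a3 (-3.78, from 6.13 to 2.35), Arc (-1.11) and the Myc family gene Mycn (-2.11), and the median was -1.22. Of 21 genes in a list of matrix metalloproteinases, ADAMTS and ADAMTS-like genes and inhibitors, 5 fell and 1 rose. Timp3, the inhibitor bound to the matrix, had the largest of these losses, from 9.10 to 6.25 (-2.85, deposited FDR 2.86e-05), and Adamtsl2 rose (0.57). The zinc finger genes with Zfp names had 6 of 31 that fell and 2 that rose, and Zfp423 had a promoter peak of each kind (-0.89 and 1.67). Fibroblast markers had 4 of 10 that fell and 0 that rose: Crabp1 (-0.83), Sfrp2, Prrx1 (-0.63) and Pdgfra (-0.46). Of 10 markers of endothelium, muscle and glia 1 fell, Sox17, and no call was made at the 3 melanocyte markers, the 2 ribosomal protein genes and the 1 clustered protocadherin with a promoter peak.

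The cell cycle inhibitor locus Cdkn2a, which encodes p16 and p19 and is the standard Polycomb target in senescence, lay under a domain of 43.0 kb at chr4:89268042-89311001. Its level was 12.78 at 6 months and 12.19 at 24 months (-0.59, deposited FDR 2.99e-05). Of 3 genes for CDK inhibitors, Trp53 and Rb with a promoter peak it was the 1 that fell. Among 3 Polycomb and Trithorax genes with a promoter peak 1 fell, Bmi1, a subunit of complex 1, from 7.82 to 6.74 (-1.08, deposited FDR 0.00824). With 3 genes in a list, 1 call does not set it apart from the 11.8% of all genes with a promoter peak that fell.

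Gains at promoters were fewer and seldom lay in wide domains: 33 of the 264 were wider than 10 kb, against 334 of the 773 losses. Wap at chr11:6636162-6638322 had the lowest FDR, with a level of 2.99 at 6 months and 7.23 at 24 months (4.24, deposited FDR 3.84e-12). Zap70 went from 7.13 to 8.48 (1.35, deposited FDR 3.26e-07) and Fcrl1 from 4.67 to 7.17 (deposited FDR 6.58e-07). Further gains were at Cacna1a, a presynaptic calcium channel (1.33), Slc6a4, the serotonin transporter (1.14), Ppfia4, a synaptic scaffold (3.27), and Rgs14, a regulator of G protein signalling (0.71 over 20.6 kb). The others of the first 12 were Gm11659 (1.54), Mir7218 (1.01), Gm20610 (1.57), Clip3 (1.79) and Coil, the Cajal body protein coilin (1.15).

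Immune cell markers had 2 of 13 that rose and 0 that fell, with a median of 0.31, where all genes with a promoter peak had 4.03% that rose and 11.8% that fell. With so few genes, 1 or 2 calls do not set a list apart. Cd4, the T-cell coreceptor, went from 5.90 to 7.24 (1.35, deposited FDR 0.00665) and Laptm5, a lysosomal protein of blood cells, from 10.68 to 11.14 (0.46, deposited FDR 0.0255). Among 9 integrin genes 1 rose, Itgal, the leukocyte integrin (0.63, deposited FDR 0.014), and 0 fell. Wide gains lay near LOC115487342 (62.2 kb, 0.53), over Vwa5b1 (49.4 kb, 0.38) and over a, the agouti gene of coat colour (38.1 kb, 0.48), with deposited FDRs from 0.0345 to 0.0427.

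The zero point of the differences is a choice. All counts of losses and gains rest on the deposited one, because calls were not made again under another. Centring the differences on the median of all peaks lowers each by 0.12, and under that and 3 other zero points the median over all promoter peaks lay between -0.22 and 0.04. The homeobox list ranged from -0.65 to -0.39 and the immune list from 0.14 to 0.40. The medians of the keratins, the integrins, the markers of endothelium, muscle and glia, and the ribosomal proteins lay so close to 0 that their sign depends on this choice, as does that over all promoter peaks.

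Some stretches held many calls of 1 direction. Of 1921 windows of 1 Mb with a peak, 538 held only losses, 344 only gains, 319 both and 720 neither. The windows named here are among those with the most calls, where over all peaks 2.60% fell and 2.66% rose. On chromosome 17 between 27 and 28 Mb 26 of 68 peaks rose and 0 fell, around Grm4, a glutamate receptor gene, and Mir7218, where the strongest gain outside promoters went from 8.96 to 10.50 (1.54, deposited FDR 5.95e-12). Between 45 and 46 Mb on chromosome 9 26 of 86 peaks rose and 1 fell, around Fxyd6 and Cep164. Losses ran together at Dlx6 on chromosome 6 (13 of 56 peaks between 6 and 7 Mb, 0 gains), at Timp3 and Syn3 on chromosome 10 (13 of 116 between 86 and 87 Mb, 0 gains) and at Edn2 and Foxo6 on chromosome 4 (15 of 65 between 120 and 121 Mb, 1 gain). Neighbouring peaks can be pieces of 1 domain and are not independent, and whether calls cluster was not tested.

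Whole chromosomes differed in their balance. Median differences of the autosomes ran from -0.05 on chromosome 3, with 95 losses and 35 gains, and -0.03 on chromosome 18 to 0.18 on chromosomes 2 and 9 and 0.20 on chromosome 5, with 101 losses and 189 gains. Across the 19 autosomes the median went with the number of coding genes per Mb (Pearson's r 0.62, Spearman's rho 0.77), a description over chromosomes that share the same libraries. The quartiles of the peaks of every autosome spanned 0. Chromosome X held 138 peaks, 0.809 per Mb against 16 to 39.7 per Mb on the autosomes. Of these 23 fell (16.7%) and 0 rose, and their median was -0.67 with quartiles of -0.91 and -0.34. Sox3, Irs4 (-0.64) and Pcdh19 (-0.89) were among them. The labels used here do not give the sex of the mice.

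**Figure D4:**
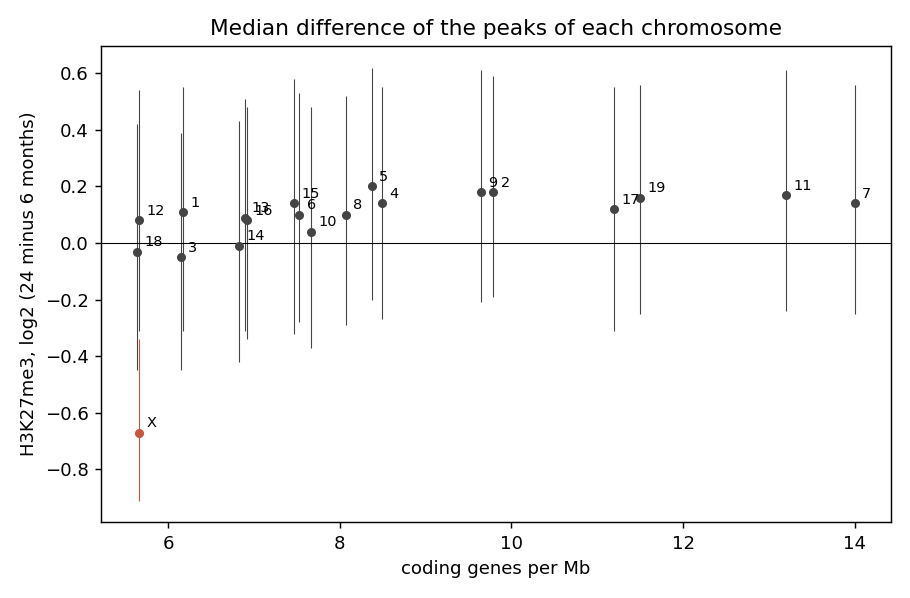
Points are the median log2 difference in H3K27me3 (24 minus 6 months) over the peaks of each chromosome, with bars from the lower to the upper quartile of peaks, against its coding genes per Mb. The autosomes (dark, numbered) lie between -0.05 and 0.20, and chromosome X (red) at -0.67.

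Losses coincided with H3K4me3. Of 1829 promoter peaks that overlapped an H3K4me3 peak by at least 1 bp, 24.9% fell and 0.765% rose, against 4.82% and 3.80% of the 6579 that did not. Overlapping peaks were wider, with a median of 6713 bases against 2381. Among promoter peaks wider than 10 kb, 32.9% of 677 with an overlap fell, against 10.6% of 1048 without. Up to 10 kb the shares were 20.2% of 1152 and 3.72% of 5531. Seen from the calls, 59.0% of the 773 promoter losses and 5.30% of the 264 promoter gains overlapped an H3K4me3 peak. By gene, an H3K4me3 promoter peak was present at 54.7% of 729 genes that only lost H3K27me3, at 14.1% of 248 that only gained it and at 23.2% of 5230 with no call. H3K4me3 itself, from 2 libraries per age, was called lower at 94.3% of its 13505 promoter peaks and higher at 0.0370%, and Pol2 was called lower at 79.1% of 3743 and higher at 0. The median H3K4me3 difference was -1.46 at genes that lost H3K27me3, -1.73 at genes that gained it, -1.53 at genes with no call and -1.42 at genes without an H3K27me3 promoter peak. Across the 1647 genes with both promoter peaks the 2 differences had a Pearson's r of -0.15 and a Spearman's rho of -0.13, given as a description.

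The authors' deposited ATAC-seq list holds peaks that differed in openness with age. Of 547 H3K27me3 peaks that overlapped a site listed as less open at 24 months, 135 fell (24.7%) and 6 rose (1.10%). Of 61 that overlapped a site listed as more open, 13 fell (21.3%) and 0 rose. Over all peaks 2.60% fell and 2.66% rose. Among promoter peaks wider than 10 kb, 37.0% of 181 at less open sites fell, against 17.3% of those without such a site. At more open sites it was 1 of 9, against 19.4%. Among promoter peaks up to 10 kb the values were 23.0% of 165 against 6.15% for less open sites, and 2 of 11 against 6.55% for more open ones. Overlapping peaks of both kinds were wide, with median widths of 7589 and 5521 bases against 1192 over all peaks.

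The RNA table of the same cells, 3 samples per age, lists 597 genes with an adjusted p up to 0.1, of which 66 (11.1%) had an H3K27me3 promoter peak. Among the 37 with less RNA at 24 months, 14 had a promoter peak that fell (37.8%) and 3 one that rose, with a median H3K27me3 difference of -0.83. Among the 29 with more RNA, 1 had a peak that fell and 1 a peak that rose, with a median of 0.02. With RNA limited to an adjusted p under 0.05, 8 of 18 genes with less RNA lost the mark and 2 gained it, and 1 of 21 with more RNA lost it and 1 gained it. Over all genes with a promoter peak 11.8% fell and 4.03% rose. The 14 and the 8 include Gm26917, and the 37 and the 18 include Gm10800. Reads of these loci may come from many copies, and their values are uncertain. The counts by direction of RNA rest on few genes and the difference between them was not tested.

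In the authors' deposited RNA table Tcf24 had a log2 difference of -1.55 ± 0.20 (SE), beside the loss of 2.26 in its mark. Timp3 had -1.01 ± 0.17 in RNA (adjusted p 1.85e-06) beside -2.85 in H3K27me3, Rorb, a nuclear receptor, -1.14 ± 0.22 (adjusted p 0.000178) beside -1.12, and Tnxb, a matrix tenascin, -0.80 ± 0.18 (adjusted p 0.00192) beside -1.20. Espn (-0.85 in RNA, adjusted p 0.0153), the glutamate transporter gene Slc1a3 (-0.86, 0.0174) and the bicarbonate transporter gene Slc4a4 (-0.76, 0.0387) also had both lower. Stra6, Loxl1, Crabp1, Ntm, Rasgrf1 and H2-Q5 lost the mark with RNA differences of -0.70 to -0.59 whose adjusted p lay between 0.0712 and 0.0932. The opposite pairing, more mark with less RNA, was found at Sh3bp5 (1.30 in H3K27me3, -0.77 in RNA), Prex1 (1.25 and -0.69) and 4930590J08Rik (0.70 and -0.75). Ntrk2, a neurotrophin receptor gene, lost mark (-1.04) and had more RNA (0.66, adjusted p 0.0329), and Kcnn3, a potassium channel gene, gained both (0.56 and 0.83). Sox21 had more RNA and Mef2c less (-1.82) with no called peak.

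**Figure D5:**
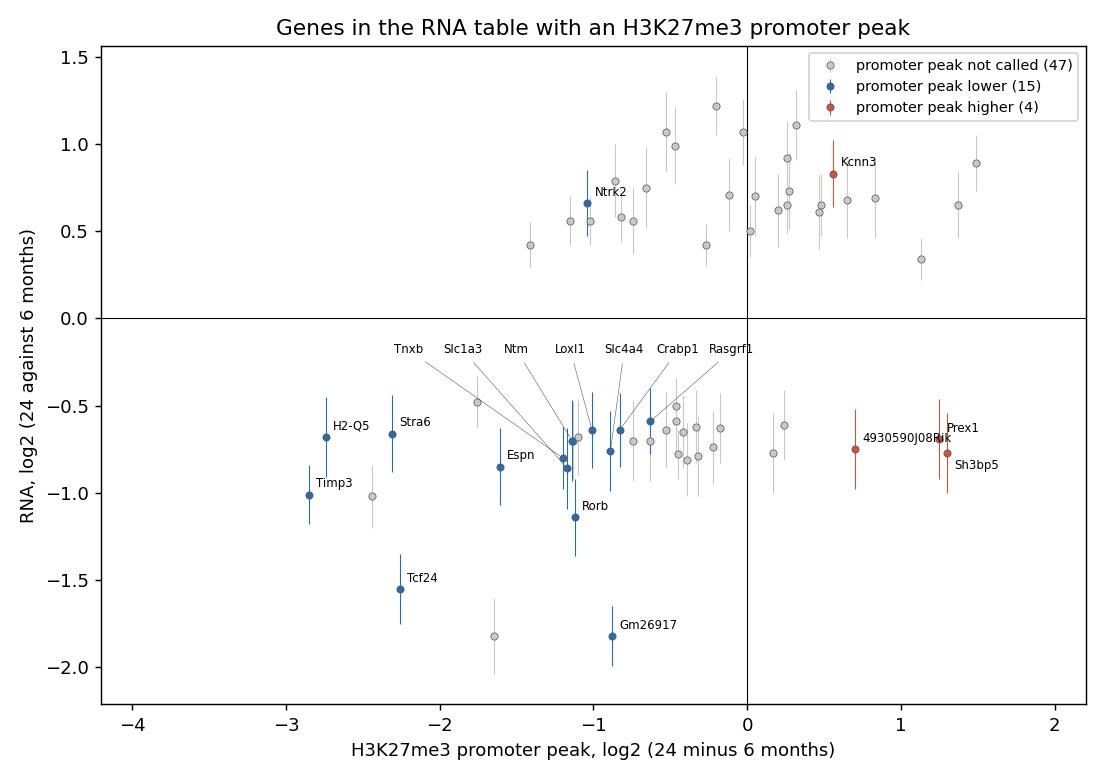
Each point is a gene of the RNA table with an H3K27me3 promoter peak, by the log2 difference of its lowest-FDR promoter peak and its RNA log2 difference with the standard error as a bar, with the mark called lower in blue and higher in red. Of the blue points 14 lie below 0 in RNA and 1, Ntrk2, above. The gene Gm10800, not called at -12.54, lies off the left edge.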

How the data were processed

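Per the submitters' processing notes, alignment used BWA 0.7.15 and GRCm38, peak calling MACS2 2.2.7.1 and the contrast of ages DiffBind 2.14.0. The deposited H3K27me3 table gives, per the file headers, the log2 mean normalized reads of each age, their log2 difference, a p-value and an FDR for each peak merged over the 6 libraries, with a gene and a position class. For read normalization and input treatment, the setting was not given in the sources used here. RNA values deposited by the authors are a mean normalized signal, log2 fold changes with standard errors and adjusted p-values, per the file headers. Values per library were not used, and 8 such columns of the ATAC-seq table stayed out.

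The deposited differences were reversed in sign and equal the difference of the levels within 0.01. FDRs recomputed from the p-values by the Benjamini-Hochberg method changed 4 calls. The H3K27me3 table has a lowest level (-0.17 young, -0.12 old), which is no measured count. Calls are at an FDR under 0.05, overlaps need 1 bp, and a gene is counted once per direction over its promoter peaks. Genes were named by a rule: both levels 2 or more log2 units above the lowest, then the 12 promoter peaks of lowest FDR and the 6 outside promoters in each direction, the 4 widest, the 4 largest at the lowest level, up to 4 and 2 called genes per list, and 10 fixed genes. Itga6 and genes in the RNA, X chromosome and window paragraphs were named after their values were seen. Some genes that the rule selects are not reported here. Members and lists were chosen with earlier results of these data known. CG pairs were counted in a RefSeq promoter table (GRCm38.p6), which also gave gene spans. Peak symbols came from the deposited table for 47823 peaks and from a gene name table for 19597. The counting was tested on simulated data. Python 3.11.15, pandas 2.3.3, numpy 2.4.6 and matplotlib 3.10.9 were used. Alternatives were other FDR thresholds, a minimum difference, peaks without low levels, autosomes, peaks of at least 1000 bases and promoters within 3 kb.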

Additional observations from a re-analysis of the deposited data

How the results depend on the processing

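At an FDR of 0.01, 931 peaks fell and 661 rose, 466 and 107 at promoters and 465 and 554 outside them, so that over all peaks losses outnumbered gains there, unlike at 0.05. At an FDR of 0.1 gains came to 2916 over all peaks, 397 at promoters and 2519 outside, with 1499 losses outside. With promoters taken to 3 kb, 407 promoter peaks rose. The median difference over all peaks turned from 0.12 to -0.02 when peaks were weighted by width. The excess of promoter losses over promoter gains was present under each alternative run. Dropping peaks near the lowest level moved no count by over 1.5 times. Of 32 gene lists 26 had more genes that fell than rose, and 24 at an FDR of 0.01, 26 with promoters to 3 kb and 21 over peaks anywhere in the gene. The balance turned for 2 lists at an FDR of 0.01 and for 4 over peaks anywhere. Of 64 list counts, 31 moved by over 1.5 times over peaks anywhere, 16 at an FDR of 0.01 and 8 at 3 kb. No paired analysis was possible because the table holds means of each age and no values per library; leaving out each replicate was not run for the same reason. The depth behind each peak is unknown, and peaks with few reads pass the FDR at larger differences only.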

Other observations

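At 253 peaks the young level and at 227 the old level was the lowest of the authors' deposited table. The largest losses of that kind with a called FDR were at Gm10125 (from 7.37), Pkdcc, a secreted tyrosine kinase gene (from 6.83), Aprt (from 6.70) and Kazald1 (from 6.45), all to -0.12. The largest gains were near Myh7b (to 6.39), Gm22796 (to 5.92), Chst15 (to 5.84) and Lrrc10 (to 5.83), all from -0.17. No fold is given for these peaks. Of the 438 peaks with an age near the lowest level, 70 were called lower and 83 higher.

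The 1 peak on the mitochondrial genome had a level of 7.91 at 6 months and 14.44 at 24 months and a deposited FDR of 1, so that it was not called. The peak at Gm10800 had 12.42 and -0.12, also with an FDR of 1. The peak at Gm26917 on chromosome 17 had a level of 16.58 at 6 months and fell by 0.88 on the log2 scale, with an RNA difference of -1.82 ± 0.17 (SE). Reads of such loci may come from many copies, and its counts are uncertain.

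On the Y chromosome 1 of 6 peaks was called, lower, at 5.68 and -0.12.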
